A study of Rattus norvegicus with 6 samples.

Results

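The receptors of osteopontin in the rat intervertebral disc are described here at the level of RNA: Cd44 and the integrin subunits Itgav, Itgb1, Itgb3, Itgb5, Itgb6, Itga4, Itga5, Itga8 and Itga9. They are the rows of the deposited count table that carry these 10 gene names, out of 30562 genes in all. Each name was found on 1 row, and all 10 genes passed the filter on low counts, which left 15537 genes to test.

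The study asked what a vesicle carrying an siRNA against Spp1, the gene of osteopontin, does to degenerating discs. Bulk RNA was read in 6 libraries of wild-type rat disc tissue, 3 controls and 3 labelled AF-PTK@LEV@SPP1, called vesicle-labelled below. By the study's methods the rats were 12 weeks old when a needle puncture was made in a tail disc, and the control discs then received PBS. The other discs received AF-PTK@LEV@SPP1, a hybrid of liposomes and detoxified outer membrane vesicles of bacteria that bears a peptide for the annulus fibrosus on a linker cut by reactive oxygen species. It was given into the disc from 24 h after surgery as 10 µL with 1 mg/kg of siRNA, and the study describes a course of 8 weeks. The sample records differ from this account: they name untreated controls, a course of 14 days, and macrophages sorted from digested discs of mice. Col2a1, the main collagen of cartilage and nucleus pulposus, had 13858 to 31944 normalized CPM in the 6 libraries, and Adgre1, the gene of F4/80, had 15.3 to 42.8. Genes of disc matrix were thus abundant, and the libraries are described as disc tissue.

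Osteopontin is a secreted phosphoprotein that cells bind in more than 1 way. An arginine-glycine-aspartate sequence is read by integrins that hold an αv, α5 or α8 subunit, and a neighbouring sequence, opened when proteases cut the protein, is read by α4β1 and α9β1. Cd44, the main hyaluronan receptor, is a further receptor through which osteopontin acts on macrophages and other cells, and an integrin reaches the cell surface only as a pair of an α and a β chain.

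The control libraries held 17942989, 16565291 and 17489851 counts, and those labelled with the vesicle held 17074981, 15560728 and 17855184. A gene with 3 counts, taken as the smallest measured level, stood at 0.167 to 0.193 CPM (reads of a gene relative to library size), a limit that covers counting error alone. Over 14393 genes, the variance between control replicates 2 and 3 was 1.33 times that of counting alone, and 0.111% of genes differed. The other 5 pairs inside a group had ratios from 51.3 to 107, with 39.5% to 56.6% of genes differing. The near-identical pair was counted as 1 sample, which leaves n = 2 distinct control samples against n = 3. An exact permutation test of 3 samples against 2 cannot give a two-sided p below 0.1. Values per library are CPM scaled by edgeR's TMM (trimmed mean of M-values) factors, and means and SD treat the pair as 1 sample.

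The siRNA targets Spp1, whose level was 8114, 4408 and 4414 normalized CPM in the controls, in the order of their replicate numbers. In the vesicle-labelled libraries it was 8047, 6893 and 8451. The groups overlapped, and the log2 fold change was 0.31 (95% interval -0.62 to 1.24, edgeR quasi-likelihood test, Benjamini-Hochberg adjusted p = 0.628). The transcript of the ligand was thus not called lower under the label, and every direction below is given relative to the labels.

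Of the 10 receptor genes, 1 was called lower in the vesicle-labelled libraries and 0 were called higher, at an adjusted p under 0.05 in the fit of 5 distinct samples. Over all genes tested, 2.57% were called lower and 1.13% higher. At an unadjusted p under 0.05 the receptors held 5 lower and 0 higher genes, beside 13% (2015 genes) and 12.4% (1926 genes) of all genes tested. Limma-voom called 1 lower and 0 higher, beside 2.03% and 0.895% of all genes, and DESeq2 4 lower and 0 higher, beside 9.27% and 7.29%. The median log2 fold change of the 10 genes was -0.60, beside 0.05 for all genes tested. In 5 of the 10, the normalized CPM of all 3 vesicle-labelled libraries lay below those of all 3 controls, a pattern found in 20.1% of the genes tested. With all 6 libraries kept as separate samples, the same edgeR test called 5 of the 10 lower and 0 higher, beside 9.93% and 8.2% of the 15042 genes tested in that fit. That fit counts the near-identical control pair as 2 samples.

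**Figure D1:**
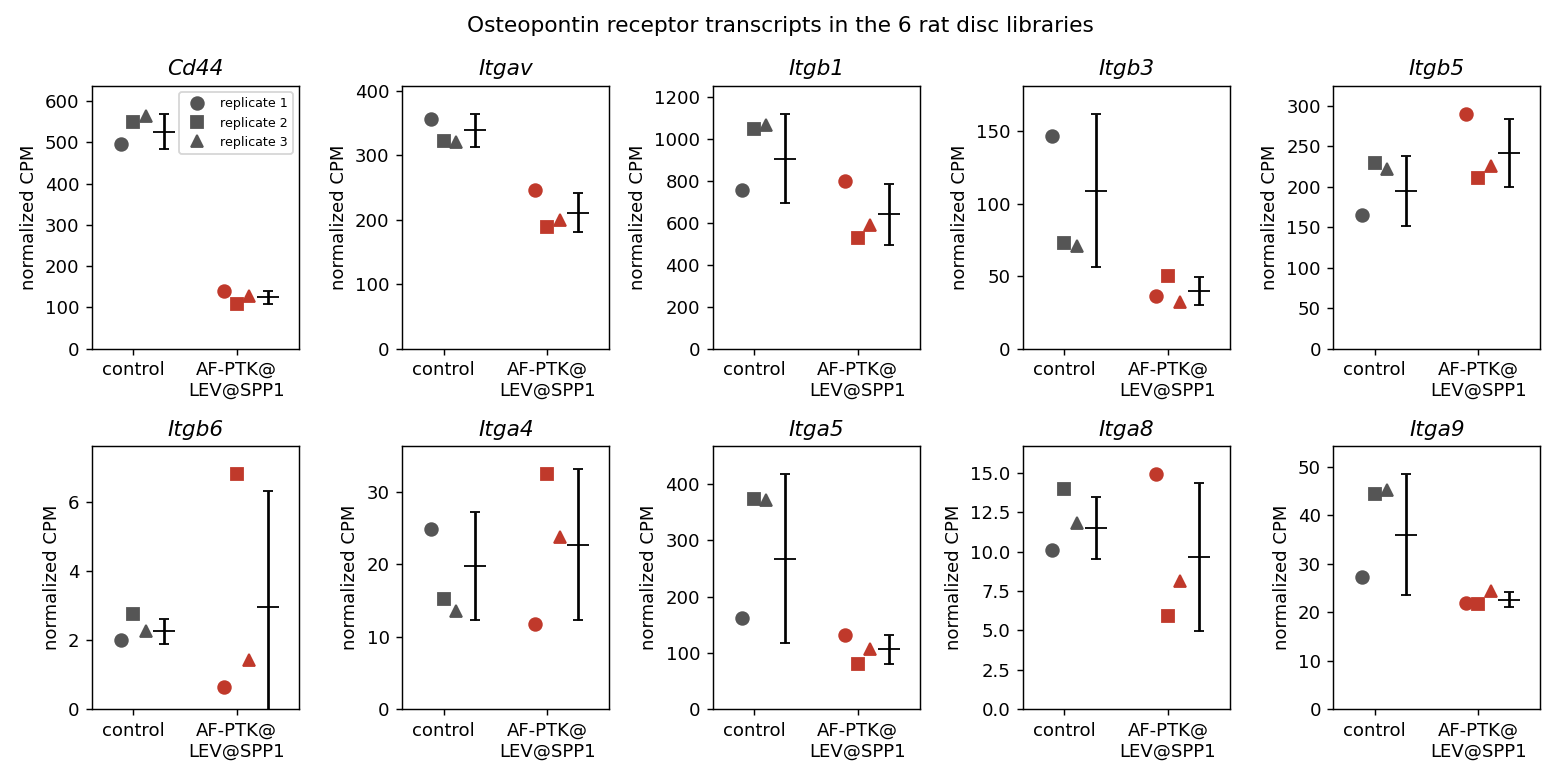
Normalized CPM of the 10 receptor genes in each library; the y axes are linear, start at 0 and differ between genes, and marker shapes give the replicate number. The horizontal mark and bar beside each group are the mean and SD over distinct samples (control n = 2, vesicle-labelled n = 3), with the bar of Itgb6 ending at the axis. For Cd44 the vesicle-labelled libraries lie between 107 and 139 and the controls between 496 and 563, and for Itgb1, Itgb5, Itgb6, Itga4 and Itga8 the groups overlap.

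Cd44 was the receptor that passed the test. This single-pass glycoprotein binds hyaluronan and, in part of its splice forms, osteopontin. In the annotation of the deposited table, whose build is not given in the sources used here, it is ENSRNOG00000006094 on chromosome 3, minus strand, 89157058 to 89244620. Cd44 had 496, 550 and 563 normalized CPM in control replicates 1, 2 and 3, and 139, 107 and 127 in the vesicle-labelled libraries. The lowest control stood above the highest of these libraries, and neither group had a library apart from the rest. The means were 526 ± 42.7 (SD, n = 2) and 124 ± 16.2 (SD, n = 3), a log2 fold change of -2.09 with a standard error of 0.17 and a 95% interval of -2.52 to -1.67 (edgeR, adjusted p = 0.0174). On the linear scale Cd44 stood 4.27-fold lower. It ranked 34 by p and 263 by size of decrease among the genes tested. Counts per gene do not separate splice forms, so the variant exons of Cd44 were not analysed here.

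The call was lost when some samples were left out, while the size of the difference moved little. Over 17 alternatives the log2 fold change of Cd44 stayed between -2.21 and -1.99, and the adjusted p was below 0.05 in 14 of them, ranging from 1.42e-26 to 0.136. It was 0.0679 without vesicle-labelled replicate 2, 0.136 without vesicle-labelled replicate 3 and 0.0838 without control replicates 2 and 3. In edgeR without vesicle-labelled replicate 2, or without replicate 3, 0 of all genes were called, with 3109 and 2699 genes at an unadjusted p under 0.05.

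Cd44 is abundant on macrophages and osteoclasts, and in bulk tissue fewer cells of a type and less RNA per cell cannot be told apart. Of 13 macrophage markers 12 were tested, and 3 were called lower and 0 higher (Cd68, Cd14 and Msr1), beside 2.57% and 1.13% of all genes tested. Cd14, a co-receptor for bacterial lipopolysaccharide, had 151, 134 and 134 normalized CPM in the controls and 38.1, 36.1 and 41.4 in the vesicle-labelled libraries (log2 fold change -1.89, edgeR adjusted p = 0.0119). The summed macrophage markers had 1333, 882 and 883 normalized CPM in the controls and 455, 747 and 580 in the vesicle-labelled libraries. Marco was at 0. Csf1r and Mrc1, the mannose receptor, were the most abundant, with control means over distinct samples of 204 and 197 normalized CPM. In the vesicle-labelled libraries their means were 105 and 102, and neither gene was called (edgeR adjusted p = 0.102 and 0.0616). The groups did not overlap for either gene. The control mean of Csf1r was raised by control replicate 1, which had 261 normalized CPM beside 145 and 148 in control replicates 2 and 3. Within the list Cd163, a haemoglobin scavenger receptor, went the other way in sign with a log2 fold change of 1.15 (edgeR adjusted p = 0.246). Of the called markers, Msr1 was at an edgeR adjusted p of 0.0463, at 0.0547 with library totals as the only scaling and at 0.0505 with robust dispersion. Of 9 osteoclast markers, given beside Itgb3 below, 6 were called lower and 0 higher, beside the same shares of all genes. The part of either cell type in the Cd44 difference was not tested.

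The genes whose pattern over the 5 distinct samples was most like that of Cd44 were Tspan11, A3galt2 and Nek6, among 10092 genes whose mean log2 CPM was 3 or more. Their root mean square differences from Cd44, on centred log2 CPM, were 0.1080, 0.1342 and 0.1549. Tspan11, a tetraspanin, had 40.2, 49.4 and 51.4 normalized CPM in the controls and 13.7, 10.5 and 11.5 in the vesicle-labelled libraries.

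The αv subunit, Itgav, is the α chain that pairs with β3, β5 and β6 as well as β1. On chromosome 3, plus strand, 68838189 to 68926639, it had 357, 322 and 321 normalized CPM in the controls and 246, 189 and 199 in the vesicle-labelled libraries. No overlap was seen between the groups, and vesicle-labelled replicate 1 was the nearest to the controls. The means were 339 ± 25.3 (SD, n = 2) and 211 ± 30.0 (SD, n = 3). The log2 fold change was -0.69 (standard error 0.17, 95% interval -1.11 to -0.27), and with an edgeR adjusted p of 0.0871 it did not pass the threshold. With all 6 libraries kept, edgeR gave Itgav an adjusted p of 0.0231. Manbal, Slc4a2 and Frk had the patterns most like that of Itgav, with root mean square differences of 0.0075, 0.0367 and 0.0368.

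Itgb3 encodes the β3 chain, which with αv forms the vitronectin receptor of osteoclasts and with αIIb the fibrinogen receptor of platelets. It lies on chromosome 10, plus strand, 89509989 to 89564679. Itgb3 had 147, 73.1 and 70.9 normalized CPM in control replicates 1, 2 and 3, and 36.6, 50.4 and 32.3 in the vesicle-labelled libraries. Control replicate 1 stood well above the control pair, and the groups did not overlap. Its log2 fold change was -1.47 (standard error 0.35, 95% interval -2.35 to -0.59, edgeR adjusted p = 0.0856), and it was -0.87 without control replicate 1. With all 6 libraries kept it was -1.29, at an edgeR adjusted p of 0.0459.

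Osteoclasts carry αvβ3, and their markers are given beside Itgb3. All 9 were tested, and 6 were called lower and 0 higher, beside the same 2.57% and 1.13%: Acp5, Ctsk, Dcstamp, Atp6v0d2, Mmp9 and Tcirg1. Their summed level was 6615, 4315 and 4336 normalized CPM in the controls and 1152, 1140 and 806 in the vesicle-labelled libraries, and control replicate 1 was the highest library here as it was for Itgb3. Ctsk, the collagen-cutting cathepsin K, was the most abundant marker, with a log2 fold change of -2.93 (edgeR adjusted p = 0.0306). Dcstamp, needed for the fusion of osteoclast precursors, had 34.7, 28.3 and 28.7 normalized CPM in the controls and 3.35, 3.62 and 2.45 in the vesicle-labelled libraries. With limma-voom the adjusted p of Atp6v0d2 was 0.0559, and 5 of the 9 markers were called lower. None of the 9 was at 0 in all libraries. Over all marker lists, edgeR's 10 lower calls became 3 without vesicle-labelled replicate 1 or control replicate 1, and 0 without vesicle-labelled replicate 2, without its replicate 3 or without control replicates 2 and 3. Of 8 platelet and megakaryocyte markers 7 were tested, and 0 were called in either direction by edgeR or limma-voom. At an unadjusted p under 0.05 in edgeR, 0 were lower and 3 higher, beside 13% and 12.4% of all genes tested. DESeq2 called 0 lower and 2 higher, beside 9.27% and 7.29%. The summed platelet and megakaryocyte markers had 56.5, 44.5 and 43.7 normalized CPM in the controls and 17.7, 66.3 and 60.7 in the vesicle-labelled libraries. Pf4 was the most abundant, and 1 marker was at 0 throughout. The part of either cell type in the values of Itgb3 was not tested.

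Itgb5, the β5 chain of the αvβ5 receptor of fibroblasts and epithelia, had the opposite sign. On chromosome 11 it had 165, 230 and 222 normalized CPM in the controls and 290, 211 and 226 in the vesicle-labelled libraries. Control replicate 1 was the lowest library and vesicle-labelled replicate 1 the highest, while the other 4 libraries lay together. A log2 fold change of 0.30 was fitted (95% interval -0.26 to 0.87, edgeR adjusted p = 0.432), which was 0.09 without control replicate 1 and 0.12 without vesicle-labelled replicate 1. A gene of unknown name on the opposite strand, AC133403.1, overlaps Itgb5 in the annotation and held 0 to 3 counts per library.

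Itgb6, the β6 chain of the epithelial αvβ6 integrin, had few reads. It had 39, 43 and 37 counts in the controls and 11, 113 and 25 in the vesicle-labelled libraries, which are 2.0, 2.76 and 2.26 against 0.646, 6.81 and 1.42 normalized CPM. Vesicle-labelled replicate 2 alone stood above the controls. Its fitted log2 fold change was 0.38 with a 95% interval of -2.11 to 2.87 (edgeR adjusted p = 0.838), and -1.12 without vesicle-labelled replicate 2. Cdh1, the epithelial cadherin, had 28.2 normalized CPM in that library and 1.86 to 19.0 in the other 5. No other epithelial marker found was highest in that library. Epcam had 1.51 there, beside 2.35 and 1.48 in vesicle-labelled replicates 1 and 3, and Krt10 had 5.36, beside 5.64 and 5.98. The 6 epithelial markers found summed to 12.6, 6.94 and 6.59 normalized CPM in the controls and 12.1, 35.9 and 28.1 in the vesicle-labelled libraries, with Cdh1 the most abundant and none at 0 throughout. Of the 4 that were tested 0 were called by edgeR, DESeq2 or limma-voom, with 0 at an unadjusted p under 0.05. Their part in the Itgb6 values was not tested.

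Itgb1, the β1 chain, is shared by the α4, α5, α8, α9 and αv receptors of osteopontin and by the collagen and laminin receptors. On chromosome 19 it had 757, 1050 and 1067 normalized CPM in the controls and 803, 529 and 590 in the vesicle-labelled libraries. Vesicle-labelled replicate 1 stood above control replicate 1, so the groups overlapped. For Itgb1 the log2 fold change was -0.51 (95% interval -1.18 to 0.16, edgeR adjusted p = 0.29), and 0 of 17 alternatives took it past the threshold. It was -0.25 without control replicates 2 and 3. Cdkn1a, Vangl1 and Lix1l had patterns most like that of Itgb1, with root mean square differences of 0.0423, 0.0439 and 0.0477.

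Itga5, the α chain of the classical fibronectin receptor α5β1, had controls that lay far apart. It lies on chromosome 7, minus strand, 134478968 to 134502837. Itga5 had 161, 374 and 371 normalized CPM in the controls and 131, 80.4 and 106 in the vesicle-labelled libraries. The groups did not overlap, although control replicate 1 stood closer to those libraries than to the control pair. The means were 267 ± 150 (SD, n = 2) and 106 ± 25.3 (SD, n = 3), and the log2 fold change was -1.34 (95% interval -2.36 to -0.33, edgeR adjusted p = 0.125). Without control replicates 2 and 3 the log2 fold change was -0.61, and without control replicate 1 it was -1.83. With all 6 libraries kept, edgeR gave an adjusted p of 0.0367.

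Fn1, the fibronectin that α5β1 binds, was laid out over the libraries much as Itga5 was. Fn1 had 11959, 27240 and 26967 normalized CPM in the controls and 6862, 4847 and 6434 in the vesicle-labelled libraries. In both genes control replicate 1 lay between the control pair and the other group. The log2 fold change of Fn1 was -1.70 (edgeR adjusted p = 0.107, 0.0277 with all 6 libraries kept, DESeq2 0.000415).

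The α9 and α4 chains pair with β1 to read the protease-opened sequence. Itga9, on chromosome 8, had 27.2, 44.3 and 45.1 normalized CPM in the controls and 21.8, 21.6 and 24.4 in the vesicle-labelled libraries, with a log2 fold change of -0.68 (95% interval -1.26 to -0.10, edgeR adjusted p = 0.153). Its groups did not overlap, by a small margin at control replicate 1, and with all 6 libraries kept the edgeR adjusted p was 0.0465. Without control replicates 2 and 3 its log2 fold change was -0.28. Itga4, on chromosome 3, had 24.9, 15.2 and 13.5 normalized CPM in the controls and 11.8, 32.4 and 23.8 in the vesicle-labelled libraries. The groups overlapped, and control replicate 1 and vesicle-labelled replicates 2 and 3 were the high libraries. The log2 fold change of Itga4 was 0.20 (95% interval -0.99 to 1.39, edgeR adjusted p = 0.816), and -0.14 without vesicle-labelled replicate 2.

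The α4 chain is carried by leukocytes, and markers of neutrophils were high in the same 3 libraries as Itga4. The summed level of 10 neutrophil markers was 1201, 194 and 182 normalized CPM in the controls and 315, 3100 and 4197 in the vesicle-labelled libraries. S100a9, a calcium-binding protein of neutrophils, was the most abundant, and none was at 0 in all libraries, although Ltf had 1 count in a single library. Of the 9 tested 0 were called by edgeR, DESeq2 or limma-voom, with 0 at an unadjusted p under 0.05. Of 9 lymphocyte markers, all tested, 1 was called lower (Cd2) and 0 higher, beside 2.57% and 1.13% of all genes tested. At an unadjusted p under 0.05 in edgeR, 4 were lower and 0 higher, beside 13% and 12.4%. DESeq2 called 3 lower and 0 higher, beside 9.27% and 7.29%, and limma-voom 1 and 0, beside 2.03% and 0.895%. The groups did not overlap for 4 of the 9, all T cell genes and all lower (Cd3e, Cd3d, Cd3g and Cd2), beside 20.1% of all genes tested. Overlap was seen for the other 5, among them the T cell gene Lck (log2 fold change 0.07, edgeR adjusted p = 0.908). Lck had 5.49, 3.6 and 3.9 normalized CPM in the controls and 3.64, 5.3 and 5.64 in the vesicle-labelled libraries. The sum of all 9 lymphocyte markers was 58.8, 22.2 and 21.2 normalized CPM in the controls and 27.9, 63.2 and 92.0 in the vesicle-labelled libraries, with the B cell gene Cd79a the most abundant and none at 0 throughout. What these cells contribute to Itga4 was not tested.

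Itga8, the α chain of a receptor that also binds nephronectin, had 10.1, 14.0 and 11.8 normalized CPM in the controls and 14.9, 5.9 and 8.14 in the vesicle-labelled libraries. It lies on chromosome 17, and its groups overlapped through vesicle-labelled replicate 1. Its log2 fold change was -0.26 (95% interval -1.32 to 0.79, edgeR adjusted p = 0.726). With 1 library left out it ranged from -0.75, without vesicle-labelled replicate 1, to -0.00, without vesicle-labelled replicate 2, and it was -0.07 without control replicates 2 and 3.

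**Figure D2:**
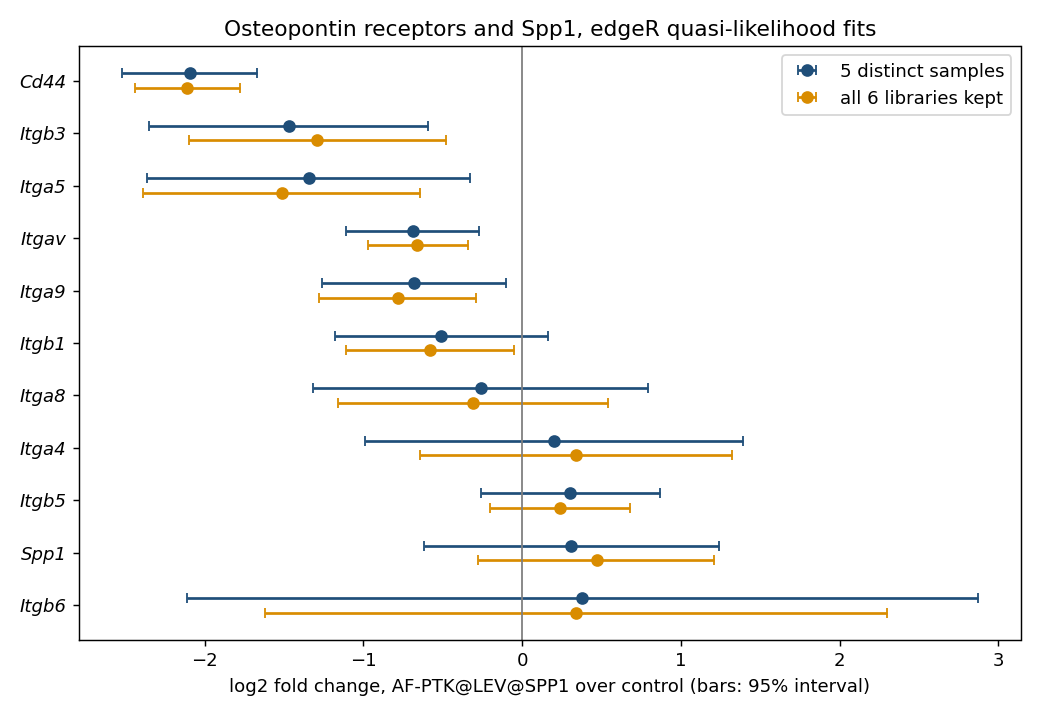
Log2 fold change of the 10 receptor genes and Spp1, vesicle-labelled libraries over controls, on the x axis; points are edgeR estimates, bars are 95% intervals, blue is the fit of 5 distinct samples and orange the fit with all 6 libraries kept. Cd44 lies at -2.09 and -2.11, and the intervals of Itga8, Itga4, Itgb5, Spp1 and Itgb6 include 0 in both fits.

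Ratios between receptor genes within a library show which chains stood higher or lower relative to each other. They are ratios of counts, not scaled for gene length, so only their difference between groups is read. The ratio of Cd44 to Itgb1 was 0.656, 0.524 and 0.528 in the controls and 0.173, 0.201 and 0.215 in the vesicle-labelled libraries. These ranges did not overlap, and the log2 ratio differed by -1.59 (two-sided exact permutation p = 0.1, 0.2 after adjustment over 4 ratios, the smallest p this design allows being 0.1). Cd44 was thus lower relative to the common β1 chain in 3 of 3 vesicle-labelled libraries.

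For Itgb3 to Itgb5, alternative partners of αv, the ratio was 0.892, 0.318 and 0.32 in the controls and 0.126, 0.239 and 0.143 in the vesicle-labelled libraries. Again the ranges did not overlap, with control replicate 1 far above the rest, and the log2 ratio differed by -1.71 (exact permutation p = 0.1, adjusted 0.2). Without control replicate 1 the difference was -0.97.

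The ratio of Itga5 to Itgav was 0.451, 1.16 and 1.16 in the controls and 0.533, 0.424 and 0.531 in the vesicle-labelled libraries. Control replicate 1 lay inside the range of the other group. The log2 ratio differed by -0.55 (exact permutation p = 0.4, adjusted 0.4), and by 0.13 without control replicates 2 and 3. The sum of Itga4 and Itga9 over the sum of Itga5, Itga8 and Itgav was 0.0988, 0.0839 and 0.0834 in the controls and 0.0858, 0.196 and 0.154 in the vesicle-labelled libraries. This ratio of sums weights each gene by its transcript length and overlapped between groups, with a log2 difference of 0.59 (exact permutation p = 0.3, adjusted 0.4).

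Integrin chains outside the osteopontin receptors were read as 3 lists. Of 8 other α chains that bind matrix or laminin, all tested, 1 was called lower and 1 higher, beside 2.57% and 1.13% of all genes tested, with a median log2 fold change of 0.56. A single call each way is no result about the list, and the 2 genes are described alone. Itga11, a collagen receptor chain of fibroblasts, had 94.4, 190 and 197 normalized CPM in the controls and 25.9, 35.7 and 29.5 in the vesicle-labelled libraries (log2 fold change -2.26, edgeR adjusted p = 0.0381). Itga10, the collagen receptor chain typical of chondrocytes, had 64.5, 68.3 and 67.4 against 141, 129 and 131 (log2 fold change 1.01, edgeR adjusted p = 0.0231). Both α chains pair with β1, and the groups did not overlap for either gene. Itga6, a laminin receptor chain and the most abundant of the list by counts, had a log2 fold change of 0.54 (edgeR adjusted p = 0.207). In edgeR without any 1 of the vesicle-labelled libraries the adjusted p of Itga11 was 0.0795 to 0.164 and that of Itga10 0.0565 to 0.136. Without control replicate 1 it was 0.0272 for Itga11 and 0.0717 for Itga10, and without control replicates 2 and 3 it was 0.093 and 0.118.

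Of the β4 and β8 chains, both tested, 0 were called in either direction by edgeR, DESeq2 or limma-voom, with 0 at an unadjusted p under 0.05. Itgb4, the more abundant, had a log2 fold change of 0.22 (edgeR adjusted p = 0.652). Of 7 leukocyte integrin chains 0 were called by edgeR, DESeq2 or limma-voom, with 0 at an unadjusted p under 0.05. Itgb2, the common β2 chain of leukocytes, had 150, 90.2 and 92.4 normalized CPM in the controls and 30.4, 108 and 109 in the vesicle-labelled libraries.

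The receptors are shared with other ligands. Of 29 such ligands 23 were tested, and 2 were called lower and 0 higher, beside 2.57% and 1.13% of all genes tested, with a median log2 fold change of -0.32. With so few calls, only the 2 genes are described. Postn, periostin, a ligand of αvβ3 and αvβ5, had 5371, 8918 and 8973 normalized CPM in the controls and 205, 149 and 322 in the vesicle-labelled libraries (log2 fold change -5.00, edgeR adjusted p = 0.0196). Emilin1, an elastic fibre protein read by α4β1 and α9β1, had 218, 335 and 336 against 124, 96.5 and 108 (log2 fold change -1.34, edgeR adjusted p = 0.0483). The adjusted p of Emilin1 was 0.0565 with limma-voom and 0.062 under a replicate block. For both ligands every vesicle-labelled library lay below every control. Fn1, described above, was the most abundant of the list.

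Proteases set which receptors can read osteopontin, because a cut exposes the α4β1 and α9β1 sequence. The cutting of osteopontin itself was not measured here. F2, the gene of prothrombin, had 1, 8 and 1 counts in the controls and 0, 1 and 5 in the vesicle-labelled libraries, and was not tested. Of 17 enzymes that cut, crosslink or dephosphorylate osteopontin or modify it otherwise 12 were tested, and 5 were called lower and 0 higher, beside 2.57% and 1.13% of all genes tested, with a median log2 fold change of -1.09. Mmp12, the macrophage elastase, had 477, 282 and 294 normalized CPM in the controls and 2.82, 3.55 and 4.38 in the vesicle-labelled libraries (log2 fold change -6.74, edgeR adjusted p = 0.00863). Mmp3, stromelysin, had 919, 1737 and 1782 against 89.6, 97.3 and 77.8 (log2 fold change -3.93, edgeR adjusted p = 0.0194). In each of them the groups lay far apart. Mmp2, a gelatinase like Mmp9, had a log2 fold change of -2.39 (edgeR adjusted p = 0.0444, limma-voom 0.0518, 0.0595 with the block), the osteoclast phosphatase Acp5 one of -2.02 (adjusted p = 0.0381) and Mmp9 one of -1.66 (adjusted p = 0.026). Acp5 and Mmp9 also stand among the osteoclast markers. Ctsb, cathepsin B and the most abundant of the list, had 1636, 2011 and 1997 normalized CPM in the controls and 954, 843 and 949 in the vesicle-labelled libraries, and was not called (edgeR adjusted p = 0.0582). Its adjusted p was below the threshold with library totals as the only scaling (0.0421), with all 6 libraries kept (0.00949) and with DESeq2 (6.04e-08).

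Inside the cell, integrin tails connect to the adhesome of talins, kindlins, kinases and actin linkers. Of 42 such genes, all tested, 1 was called lower and 0 higher, with a median log2 fold change of -0.02. Beside the 2.57% of all genes called lower, this count is near the background and is no result about the list. The 1 gene called was Src. Src, the tyrosine kinase that β3 binds, had 109, 80.7 and 84.8 normalized CPM in the controls and 49.0, 42.1 and 43.8 in the vesicle-labelled libraries (log2 fold change -1.10, edgeR adjusted p = 0.0356). Its groups did not overlap, and with library totals as the only scaling the adjusted p was 0.0518. Flna, an actin linker and the most abundant adhesome gene, had a log2 fold change of 0.02 (edgeR adjusted p = 0.971).

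Among 20 genes that process or partner Cd44, such as its hyaluronan synthases, sheddases and cytoskeletal linkers, 19 were tested, and 1 was called lower and 0 higher, beside 2.57% and 1.13% of all genes tested. As for the adhesome, a single call is no result about the list. Mmp14, the membrane protease that sheds Cd44, had 782, 1421 and 1417 normalized CPM in the controls and 222, 186 and 181 in the vesicle-labelled libraries (log2 fold change -2.50, edgeR adjusted p = 0.026). Every one of these libraries lay below the controls. The median log2 fold change of the list was -0.12. Vcan, the hyaluronan-binding proteoglycan versican and the most abundant of the list, had a log2 fold change of 0.09 (edgeR adjusted p = 0.934). Across these pathway lists the 10 lower calls fell to 0 without vesicle-labelled replicate 2 or without replicate 3, to 1 without replicate 1 and to 1 without control replicates 2 and 3.

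Promoters were read to see what sequence the receptor genes have in common, and are shown for the members whose groups did not overlap. RefSeq promoters on build GRCr8, 250 bases before to 50 after the start, were matched for 9 of the 10 genes, all but Itgb3. Both strands were searched for GGGCGG, the core of the GC box, for TGANTCA, the AP-1 sequence, and for the NF-κB site. GGGCGG stood in 4 of the 9 (Itgav, Itgb1, Itga5 and Itga9), beside 33.1% of all 33469 promoters. TGANTCA stood in 0 of the 9, beside 7.33% of all promoters. The NF-κB site stood in 1 (Itga5), beside 7.51%. In the sequences, given 5′ to 3′ on the strand of the gene, capitals mark GGGCGG or its complement and, in Itga5, also the overlapping matches to the NF-κB site, which lie in a single stretch.
Cd44, chr3:109699375-109699674, minus strand: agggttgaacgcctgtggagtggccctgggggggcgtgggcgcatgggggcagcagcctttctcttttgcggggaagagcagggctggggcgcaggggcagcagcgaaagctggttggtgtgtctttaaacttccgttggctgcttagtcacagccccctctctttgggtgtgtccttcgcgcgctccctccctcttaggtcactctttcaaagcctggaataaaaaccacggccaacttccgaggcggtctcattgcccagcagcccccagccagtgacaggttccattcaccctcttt
Itgav, chr3:89245132-89245431, plus strand: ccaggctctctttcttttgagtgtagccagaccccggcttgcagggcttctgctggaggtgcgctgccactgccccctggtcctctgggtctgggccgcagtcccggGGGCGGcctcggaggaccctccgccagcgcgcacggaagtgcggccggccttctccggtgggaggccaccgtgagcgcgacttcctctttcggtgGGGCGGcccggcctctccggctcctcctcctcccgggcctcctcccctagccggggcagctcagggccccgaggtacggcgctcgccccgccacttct
Itga5, chr7:136381256-136381555, minus strand: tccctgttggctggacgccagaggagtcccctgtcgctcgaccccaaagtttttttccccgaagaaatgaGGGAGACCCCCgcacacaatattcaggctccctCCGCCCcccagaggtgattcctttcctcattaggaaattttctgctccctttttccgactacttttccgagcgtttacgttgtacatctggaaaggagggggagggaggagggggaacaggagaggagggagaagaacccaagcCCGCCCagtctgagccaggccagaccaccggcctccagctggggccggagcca
Itga9, chr8:127185039-127185338, plus strand: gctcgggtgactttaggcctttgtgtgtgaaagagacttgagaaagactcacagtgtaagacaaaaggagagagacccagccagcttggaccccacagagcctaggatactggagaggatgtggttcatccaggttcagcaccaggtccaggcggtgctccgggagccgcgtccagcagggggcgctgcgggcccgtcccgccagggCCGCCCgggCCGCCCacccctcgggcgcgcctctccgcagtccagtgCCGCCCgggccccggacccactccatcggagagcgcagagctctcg
The Cd44 window held none of these letters in order and was 60.3% G and C, against 72.7% for Itgav, 58.7% for Itga5 and 66.7% for Itga9. A match is a description of the sequence and no test of binding was made.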

How the data were processed

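The authors deposited counts, whole numbers of reads per Ensembl rat gene in each of 6 libraries, without normalization. The submitters' processing notes list FastQC, Trimmomatic, HISAT2, featureCounts and DESeq2, and mm10 although the genes are rat; versions, the strand setting and the treatment of shared reads are not given in the sources used here. Members and gene lists were chosen with earlier results of these data known. The study describes the libraries of a group as coming from independent animals.

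Counts were fitted in R 4.3.3 with edgeR 4.0.16: trimmed mean of M-values, filterByExpr (minimum count 10), quasi-likelihood test and Benjamini-Hochberg adjustment over all genes tested, with the counts of control replicates 2 and 3 summed. The common biological coefficient of variation was 0.302. Pair similarity used genes with at least 20 counts, and log2 CPM a prior count of 2. The table gives no transcript lengths, so subunit ratios planned on length-scaled levels were computed on counts. List names were matched by symbol, or by a RefSeq synonym that is no other gene's symbol, and the row with more counts was used where a name stood on several.

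Named were the 10 members, Spp1, from each pathway list the called genes up to 4 in each direction by log2 fold change and its most abundant gene, and the 3 genes most like Cd44, Itgav and Itgb1. Fn1, Mmp9 beyond that number and the marker genes were named for their list or after their values were seen. Alternatives were DESeq2 1.42.0, limma-voom (limma 3.58.1), other scalings and filters, a robust fit, the replicate block, all 6 libraries kept and each library left out. The scripts were tested on simulated data.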

Additional observations from a re-analysis of the deposited data

How the results depend on the processing

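Cd44 kept its direction in all 17 alternatives and its call in 14. With all 6 libraries kept, edgeR called 5 receptor genes lower, 29 pathway genes lower and 7 higher, and 1494 of all genes lower and 1233 higher, against 1, 10, 1, 400 and 175 with the control pair summed. DESeq2 called 4 receptor genes lower (Cd44, Itgav, Itgb3 and Itga5), 29 pathway genes lower and 6 higher, and 1440 and 1132 of all genes. Marker genes called lower and higher were 10 and 1, against 23 and 10 with all 6 libraries and 24 and 17 with DESeq2. Without control replicates 2 and 3, which leaves 1 control assumed to vary like the other group, 0 receptor genes were called, 1 pathway gene lower and 0 higher, 0 marker genes, and 3 of all genes lower and 0 higher, and 2572 genes had an unadjusted p under 0.05. Leaving out 1 library gave 0 to 1 receptor genes lower, 0 to 10 pathway genes lower and 0 to 1 higher, 0 to 10 marker genes lower and 0 to 2 higher, and 0 to 396 of all genes lower and 0 to 170 higher. Receptor genes called higher stayed at 0 in all 17.

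The replicate block, fitted with all 6 libraries, called 1 receptor gene lower (Cd44, adjusted p = 0.03), 9 pathway genes lower and 2 higher, 12 marker genes lower and 4 higher, and 434 and 307 of all genes. The numbers share no known animal: the deviations of same-numbered libraries correlated at -0.339, -0.31 and -0.0823 across genes, and 0 of 6 libraries correlated best with their own number.

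Signs turned as follows, with the cause not tested. The log2 fold change of Itgb6 was -0.27 with the replicate block, -0.31 with limma-voom and -1.12 to 0.82 with 1 library left out. That of Itga4 was -0.15 without control replicates 2 and 3 and -0.14 to 0.64 with 1 library left out. Spp1 was at -0.07 without control replicates 2 and 3. The log2 ratio of Itga5 to Itgav differed by 0.13 without that pair. Itgb4 ranged from -0.09 to 0.36 with 1 library left out. Flna was at -0.04 with all 6 libraries, -0.06 with the block, -0.03 with no filter and -0.26 to 0.15 with 1 library left out. Vcan was at -0.08 with all 6 libraries, -0.12 with the block and -0.40 to 0.34 with 1 library left out. No receptor changed sign under another scaling.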

Other observations

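Markers of resident disc cells are given without a comparison to the other lists. Of 8 chondrocyte markers, all tested, edgeR called 0 lower and 1 higher, beside 2.57% and 1.13% of all genes tested. At an unadjusted p under 0.05 in edgeR, 2 were lower and 1 higher, beside 13% and 12.4%. DESeq2 called 1 lower and 1 higher, beside 9.27% and 7.29%, and limma-voom 0 and 1, beside 2.03% and 0.895%. The groups did not overlap for 2 lower and 1 higher of the 8, beside 20.1% and 21.8% of all genes tested, and the median log2 fold change of the list was 0.28. Chad, a cartilage matrix protein that binds α2β1, had 222, 465 and 466 normalized CPM in the controls and 2872, 1797 and 3260 in the vesicle-labelled libraries (log2 fold change 2.93, adjusted p = 0.0454). Its adjusted p was 0.0504 under a replicate block, 0.0839, 0.0893 and 0.163 without vesicle-labelled replicates 1, 2 and 3 in turn, 0.0946 without control replicate 1 and 0.118 without control replicates 2 and 3. Of 7 annulus and tendon markers and 7 osteoblast and osteocyte markers, all tested, 0 were called by edgeR or limma-voom. At an unadjusted p under 0.05 in edgeR, 1 annulus and tendon marker was lower and 1 higher, beside 13% and 12.4% of all genes. DESeq2 called 1 lower and 1 higher of that list, beside 9.27% and 7.29%. In the osteoblast and osteocyte list these counts were 0.

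In 3 further marker lists the sums of all vesicle-labelled libraries lay above those of all controls, and in skeletal muscle the groups overlapped. The notochord and nucleus pulposus markers summed to 828, 396 and 389 normalized CPM in the controls and 4257, 1526 and 1812 in the vesicle-labelled libraries. Skeletal muscle markers summed to 955, 1168 and 1186, and to 912, 9319 and 2460. Adipocyte markers summed to 382, 64.2 and 68.3, and to 951, 1547 and 675. Schwann cell markers summed to 331, 313 and 296, and to 522, 971 and 1295. Of these lists 6, 5, 5 and 6 genes were tested, in that order, and edgeR and limma-voom called 0. At an unadjusted p under 0.05 in edgeR, the counts were 4 higher and 1 lower, 0, 4 higher and 5 higher. Over all genes tested, 12.4% were higher and 13% lower at that threshold. DESeq2 called 4 higher and 1 lower, 0, 4 higher and 5 higher, beside 7.29% higher and 9.27% lower of all genes.

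Endothelial markers summed to 592, 710 and 696 normalized CPM in the controls and 434, 507 and 509 in the vesicle-labelled libraries, without overlap. Smooth muscle and pericyte markers summed to 980, 1221 and 1231, and to 1890, 1057 and 992, and overlapped. Of these lists 8 and 9 genes were tested, and edgeR and limma-voom called 0 of either. At an unadjusted p under 0.05 in edgeR, 5 and 2 were lower, beside 13% of all genes tested. DESeq2 called 4 and 1 lower, beside 9.27%.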
